A study of Mus musculus with 32 samples.

Results

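The comparison set 3 mammary gland arrays from FVB dams on a diet with 8% fat against 4 mammary gland arrays from FVB dams on chow, both in established lactation. These 7 arrays, of 32 in the series, were chosen by title: all arrays titled mammary gland with 8% dietary fat, and all titled normal dietary fat at lactation day 9. FVB is an inbred strain, and all animals were described as wild type. The dams on 8% fat (percent of calories, as soy oil) ate chow until lactation day 5, changed to the test diet for 5 days and gave tissue at lactation day 10. The dams of the other group ate chow throughout and gave tissue at lactation day 9. Diet, 1 day of lactation and the sub-experiment therefore differ together between the groups and cannot be told apart. The descriptions of the mammary arrays titled 8% and 16% fat both name 40% fat, so that these groups rest on the titles. A further 3 arrays on 16% fat and 3 on 40% fat came from the same diet sub-experiment and are given beside some of the changes. The day and duration are stated for 40% fat as for 8% fat, and are not stated for 16% fat.

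The lactating mammary gland makes milk fat from fatty acids that it builds from glucose and from fatty acids that it takes up from blood. Citrate leaves the mitochondrion, is split to acetyl-CoA in the cytosol and is turned into palmitate by acetyl-CoA carboxylase and fatty acid synthase, after which elongases and desaturases lengthen and unsaturate it. The transcription factor SREBP-1 drives many genes of this pathway, and the related SREBP-2 drives those of cholesterol synthesis. Dietary fat is known to lower fatty acid synthesis in this tissue. Besides its alveolar epithelium the gland holds contractile myoepithelial cells, fibroblasts, fat cells, vessels and, in lactation, plasma cells whose antibodies enter milk.

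Every value here is the log2 of a deposited array intensity, and every change is the mean log2 level on 8% fat minus that on chow, with its standard error (SE). A probe set is a group of array probes read as 1 value for a transcript, and a gene is represented by its brightest probe set. Changes were tested with limma, and a change counts as called where its p, adjusted by Benjamini-Hochberg, was under 0.05. Of the tested probe sets 25.9% were called, 1755 of 6787, with 796 higher and 959 lower on 8% fat. With 1 probe set per gene, 633 of 5202 genes were higher (12.2%) and 644 were lower (12.4%). Without any 1 of the 8% arrays the test called 333 to 424 higher and 161 to 268 lower, and without chow replicate 4 it called 442 higher and 244 lower. Without chow replicate 1 or 3 it called 411 and 350 lower. The arrays of the groups did not overlap in 2618 probe sets (38.6%), with 1027 above chow (15.1%) and 1591 below (23.4%). A change of at least 2-fold was called for 74 genes that were higher and 24 that were lower. On the same test 764 probe sets were called for 16% fat against chow (11.3%; 8.32% higher and 2.93% lower) and 1326 for 40% fat against chow (19.5%; 9.55% higher and 9.99% lower). Leaving out single arrays gave 328 to 1182 calls for 16% fat and 323 to 2101 for 40% fat. These comparisons share the chow arrays with the 8% comparison, so that their values are only given side by side.

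Between 8% and 40% fat, which share day and sub-experiment, limma called 0 of 6787 probe sets (0%), while 451 had an unadjusted p under 0.05; limma with a variance trend and robust fit also called 0, and leaving out single arrays gave 0 to 4 calls, 4 without 8% replicate 2. The lowest adjusted p was 0.083, for Scd1. Over all probe sets the arrays on 8% fat correlated at r of 0.9928 to 0.9937 with each other, against 0.9865 to 0.994 among the chow arrays and 0.9787 to 0.9873 between the groups. The first principal component of the 13 arrays held 38% of the variance and set the 4 chow arrays, at 14.2 to 24.8, apart from the 9 diet arrays, at -16.6 to 1.57.

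The change depended on the level of the probe set. Probe sets with a mean level under 5 had a median change of -0.227, with 64 called higher and 577 lower. From 8 to 10 the median was 0.176, with 162 higher and 36 lower. The arrays on 16% and 40% fat showed medians of -0.129 and -0.207 against the same chow arrays for probe sets under 5, while the median was -0.0201 for 8% against 40% fat. Median intensity was 18.2 to 18.5 on 8% fat, against 19.4 to 21.5 on chow, and of the 959 lower probe sets 273 had a mean on 8% fat below the filter line of 4.22. A smooth curve by level removed from each array, added after seeing the data, left 594 higher and 338 lower, and arrays set equal at their ribosomal medians, with a median change of 0.0627 over all probe sets against -0.041 before, gave 816 higher and 89 lower. Falls of dim genes and rises of bright genes are therefore read against these medians. The shares over all genes that are set beside gene lists below are not matched for level. At a level of 8 to 10, 162 of 702 probe sets were called higher, and at 7 to 8, 183 of 857.

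**Figure D1:**
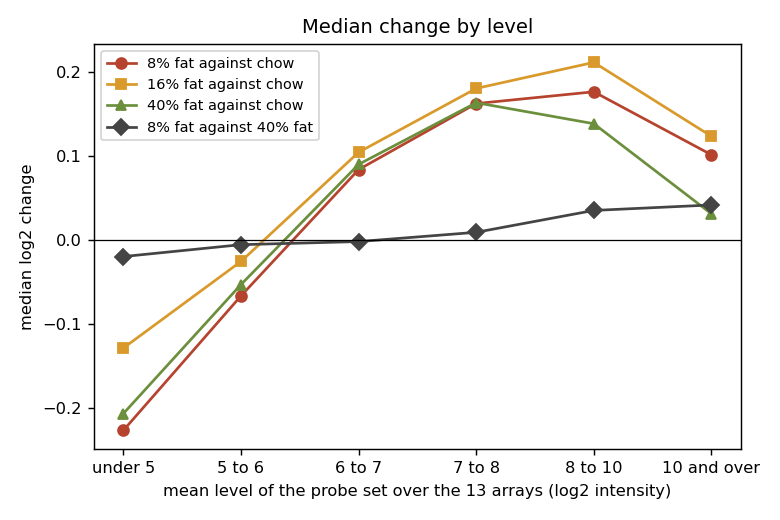
Median log2 change (y axis) of tested probe sets by their mean level over the 13 arrays (x axis, log2 intensity, low to high) for 4 comparisons; each point is a bin. Against chow all diets lie below 0 for dim probe sets and above 0 from a level of 6, while 8% against 40% fat stays between -0.0201 and 0.0413.

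Chow replicate 1 stood apart from the other chow arrays in several gene groups. Its level of the haemoglobin gene Hba-a1 was 9.12, against 13.12, 11.95 and 12.49 in chow replicates 2, 3 and 4. Its levels of the collagen genes named here and of several lipid genes were also the lowest of the chow arrays. For several of the genes that rest on it, values are given with and without it, and for others only with it. All 7 arrays carried high levels of milk protein genes: beta-casein (Csn2) lay at 14.24 to 14.27 on 8% fat and 14.21 to 14.48 on chow, and whey acidic protein (Wap) at 15.73 to 15.76 on 8% fat and 15.68 to 15.80 on chow. The summed intensity of 13 adipocyte markers was 8341 to 8953 on 8% fat, within the 7109 to 9372 on chow. The tissue was read as a whole, so that fewer cells of a type and less RNA per cell cannot be told apart.

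Some genes that modify fatty acids were higher on 8% fat. Of 8 tested desaturases and elongases 3 were called higher, 0 lower and 5 not called, against 12.2% and 12.4% of all genes. The median change of the 8 was 0.25. Of all probe sets, 162 of 702 were called higher at a level of 8 to 10 (median 0.176) and 43 of 286 at 10 and over (0.101). Elovl6, the elongase that takes palmitate to stearate, had 8.98, 9.20 and 8.48 on 8% fat, against 7.04, 8.12, 7.82 and 8.08 on chow. The groups did not overlap, and chow replicate 1 was the lowest. The change was 1.12 ± 0.25 (2.18-fold, adjusted p = 0.0116), a second probe set of Elovl6 gave 1.21 ± 0.18 (adjusted p = 0.00159), and without chow replicate 1 the change was 0.88 (adjusted p = 0.0128). Without 8% replicate 2 the adjusted p of Elovl6 was 0.057.

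Scd2, a stearoyl-CoA desaturase, had 11.88, 11.40 and 11.46 on 8% fat, against 10.56, 10.63, 10.86 and 10.39 on chow, so that every array on 8% fat lay above every chow array. Its change was 0.97 ± 0.17 (adjusted p = 0.00399) and it was called whichever of the 7 arrays was left out. Elovl5, an elongase of polyunsaturated fatty acids, had 13.21, 13.07 and 13.26 on 8% fat, against 12.00, 12.66, 12.77 and 12.53 on chow, a rise of 0.69 ± 0.15 (adjusted p = 0.0113). Elovl5 was called under each of the 7 omissions too, and its rise was 0.53 without chow replicate 1. Scd1, the main desaturase by signal, had 14.56, 14.53 and 14.55 on 8% fat, against 13.46, 14.54, 14.22 and 14.31 on chow. These groups overlap by a single chow array, and the difference of 0.41 ± 0.19 was not called (adjusted p = 0.125). Without chow replicate 1, the lowest, the difference of Scd1 was 0.19 (adjusted p = 0.223), and without chow replicate 2 it was 0.55 (0.0377). Other probe sets of Scd1 gave 0.19 ± 0.13 and -0.06 ± 0.16, neither called (adjusted p = 0.279 and 0.781).

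The genes of fatty acid synthesis itself were mostly not called. Of 7 tested, 1 was called higher and 0 lower, and their median change was 0.29. The called gene was Me1, cytosolic malic enzyme, which supplies NADPH, at 11.73, 11.84 and 11.63 on 8% fat, against 11.00, 11.59, 11.12 and 11.00 on chow (change 0.55 ± 0.14, adjusted p = 0.0193). Its adjusted p was 0.0529 without 8% replicate 1, 0.0751 without 8% replicate 2 and 0.0536 without chow replicate 4. With a smooth curve by level removed Me1 was 0.41 and not called (adjusted p = 0.0627). Fatty acid synthase (Fasn) had 13.50, 13.46 and 13.63 on 8% fat, against 12.73, 13.45, 13.58 and 13.19 on chow, which overlap (difference 0.29 ± 0.16, adjusted p = 0.186). Without chow replicate 1 the difference of Fasn was 0.12.

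ATP citrate lyase (Acly) averaged 13.57 on 8% fat and 13.36 on chow, a difference of 0.21 ± 0.09 (adjusted p = 0.11). The citrate carrier Slc25a1 had 12.35, 12.38 and 12.48 on 8% fat, against 11.08, 12.28, 12.30 and 12.25 on chow. Its difference was 0.43 ± 0.24 (adjusted p = 0.186) and 0.13 without chow replicate 1. Thrsp, a lipogenic nuclear protein also called Spot 14, averaged 13.15 on 8% fat and 12.74 on chow (difference 0.41 ± 0.14, adjusted p = 0.0534). The difference of Thrsp was 0.53 without chow replicate 3 (adjusted p = 0.0247) and 0.27 without chow replicate 1 (0.098).

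Srebf1, which encodes SREBP-1, had 10.37, 10.61 and 10.83 on 8% fat, against 10.30, 10.35, 10.95 and 10.73 on chow. The groups covered the same range, with a difference of 0.02 ± 0.21 (adjusted p = 0.956) whose sign turned with several settings. Of 9 tested regulators of lipid genes limma called 0, with or without a variance trend, and 1 had an unadjusted p under 0.05. On 16% and 40% fat Srebf1 averaged 9.95 and 9.88.

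Cholesterol synthesis had 5 called genes of 16 tested, all higher, against 12.2% of all genes, and a median change of 0.33. Sqle, squalene epoxidase, had 8.75, 8.63 and 8.88 on 8% fat, against 7.58, 8.23, 8.09 and 7.85 on chow, with no overlap. Its change was 0.82 ± 0.14 (adjusted p = 0.0039), and it was called under each of the 7 omissions. Nsdhl, a sterol dehydrogenase that acts in the removal of methyl groups from lanosterol, had 6.85, 6.68 and 6.36 on 8% fat, against 5.17, 6.29, 5.02 and 4.36 on chow (1.42 ± 0.34, adjusted p = 0.0159). A second probe set of Nsdhl gave 0.33 ± 0.12, which was not called (adjusted p = 0.0629), and the brightest was not called without 8% replicate 1 (0.055) or 8% replicate 2 (0.0561).

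Fdps, farnesyl diphosphate synthase, had 10.21, 10.00 and 9.85 on 8% fat, against 8.15, 9.70, 9.31 and 9.34 on chow. The lowest value, chow replicate 1, carried much of its change: 0.90 ± 0.27 with that array (adjusted p = 0.0345) and 0.57 without it (adjusted p = 0.0221). Fdft1, squalene synthase, rose by 0.69 ± 0.17 (adjusted p = 0.0191) and Mvd, mevalonate diphosphate decarboxylase, by 0.78 ± 0.23 (adjusted p = 0.033). Fdft1 was not called without 8% replicate 2 or 3 or chow replicate 4 (adjusted p up to 0.0648), and Mvd not without 8% replicate 1 or 3 or chow replicate 1 or 4 (up to 0.118). A second probe set of Fdps gave 0.41 ± 0.24, not called (adjusted p = 0.203), and their average was not called either (0.24, adjusted p = 0.189). Fdps was not called without any 1 of the 8% arrays, nor without chow replicate 3 or 4 (up to 0.0984). With a smooth curve by level removed Fdps was 0.74 and not called (adjusted p = 0.0837).

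The other diets are set beside these values. Scd2 averaged 11.58 on 8%, 11.56 on 16% and 10.78 on 40% fat, against 10.61 on chow. Elovl6 averaged 8.89, 8.48 and 7.99 on 8%, 16% and 40% fat, against 7.76 on chow. Scd1 averaged 14.54 on 8%, 14.55 on 16% and 13.26 on 40% fat, against 14.13 on chow. On 40% fat the median differences from chow were -0.11 for fatty acid synthesis, 0.09 for desaturases and elongases and 0.08 for cholesterol synthesis. The direct differences between 8% and 40% fat were 1.29 for Scd1 (adjusted p = 0.083), 0.80 for Scd2 (0.21), 0.65 for Me1 (0.21) and 0.90 for Elovl6 (0.4), none of them called.

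**Figure D2:**
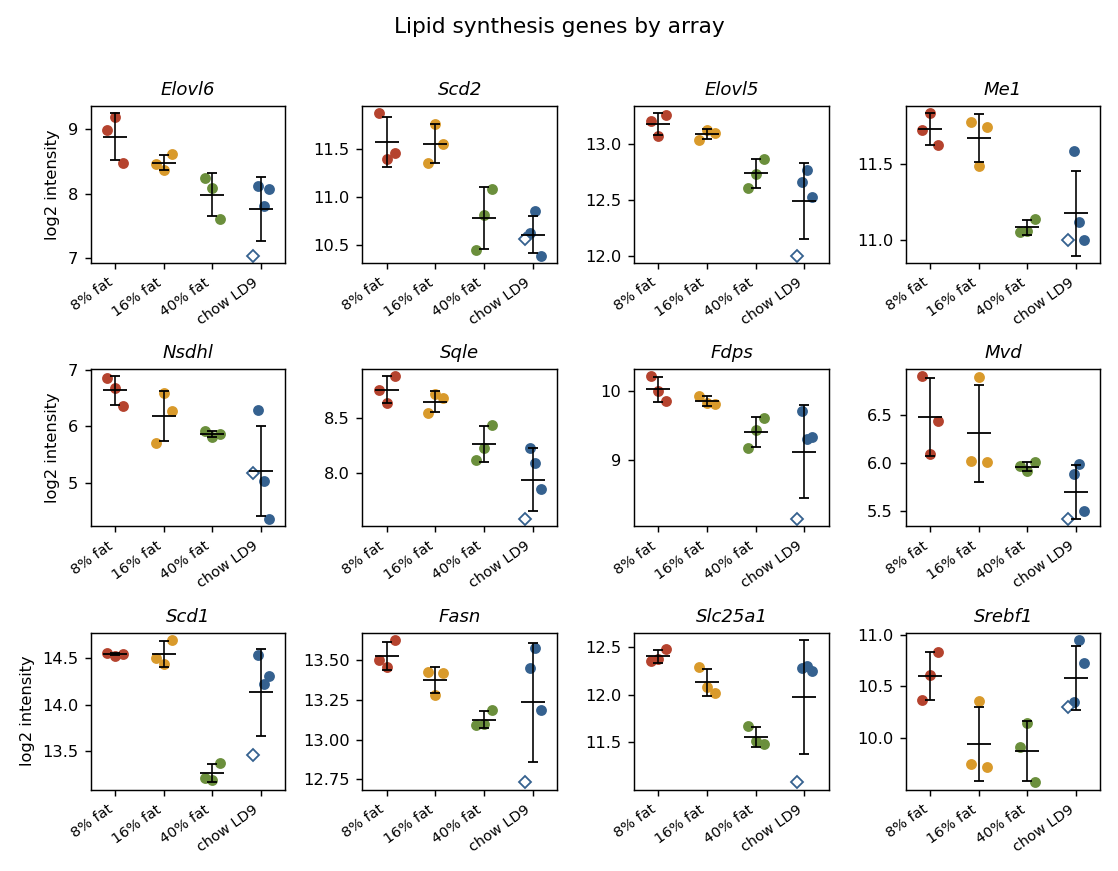
Log2 intensity (y axis) of 12 lipid synthesis genes on each array, by diet; points are arrays, the open diamond is chow replicate 1, and bars are group mean ± SD (n = 3 per diet, 4 for chow). Scd2 and Sqle on 8% fat lie above all chow arrays, Srebf1 covers the same range in both, and chow replicate 1 is the lowest chow array for Elovl6, Elovl5, Fdps, Scd1, Fasn and Slc25a1.

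Sequences upstream of 4 of the called lipid genes are shown because the factor NF-Y, which acts with SREBPs at many lipid promoters, binds CCAAT boxes. Of the 9 genes called higher in the fatty acid synthesis, desaturase and elongase, and cholesterol lists, 5 had an entry in the RefSeq promoter table (build GRCm38.p6). Each line gives the 250 bases before the start site, 5′ to 3′ on the gene's strand, and capitals mark CCAAT or its reverse complement ATTGG. Elovl5 lies on the plus strand (chr9:77917115-77917364), Mvd on the minus strand (chr8:122443423-122443672), Nsdhl on the plus strand (chrX:72918271-72918520) and Elovl6 on the plus strand (chr3:129532136-129532385).
Elovl5: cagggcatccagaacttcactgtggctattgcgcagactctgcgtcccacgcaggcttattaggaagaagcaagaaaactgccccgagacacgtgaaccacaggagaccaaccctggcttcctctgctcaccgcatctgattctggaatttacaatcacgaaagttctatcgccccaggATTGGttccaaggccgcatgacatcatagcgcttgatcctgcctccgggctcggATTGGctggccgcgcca
Mvd: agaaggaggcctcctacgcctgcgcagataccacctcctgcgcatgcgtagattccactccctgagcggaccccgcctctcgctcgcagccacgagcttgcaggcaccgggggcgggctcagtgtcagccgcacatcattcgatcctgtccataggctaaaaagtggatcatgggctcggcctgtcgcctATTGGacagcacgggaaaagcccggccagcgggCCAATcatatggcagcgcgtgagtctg
Nsdhl: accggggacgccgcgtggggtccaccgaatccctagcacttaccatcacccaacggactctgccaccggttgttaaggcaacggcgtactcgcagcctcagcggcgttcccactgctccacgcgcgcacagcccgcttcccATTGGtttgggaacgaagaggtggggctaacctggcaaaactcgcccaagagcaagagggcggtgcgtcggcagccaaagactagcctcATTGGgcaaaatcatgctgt
Elovl6: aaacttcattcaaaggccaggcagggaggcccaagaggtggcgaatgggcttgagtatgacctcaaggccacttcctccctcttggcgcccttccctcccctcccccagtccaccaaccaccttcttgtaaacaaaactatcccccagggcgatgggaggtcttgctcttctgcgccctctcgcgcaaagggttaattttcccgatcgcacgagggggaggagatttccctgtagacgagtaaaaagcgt
The matches began at positions -71 and -17 from the start site of Elovl5, at -60 and -27 for Mvd and at -109 and -20 for Nsdhl, and the letters were not in this window of Elovl6. Me1, the other gene in the table, held a match in 1 of its 2 listed promoters. One or more matches occurred in 33.8% of all 32851 promoters of the table, so a match here is only a description.

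Of 14 genes of fatty acid uptake and activation 2 were called higher and 1 lower, near the shares over all genes, and their median change was -0.07. Slc27a3, a fatty acid transport protein family member with acyl-CoA synthetase activity, had 6.83, 6.95 and 6.41 on 8% fat, against 5.59, 5.24, 5.50 and 5.17 on chow. The arrays on 8% fat were all higher, by 1.36 ± 0.15 (2.56-fold, adjusted p = 0.000226), and the gene averaged 6.97 on 16% and 7.39 on 40% fat (8% minus 40% fat -0.66, adjusted p = 0.22, not called). Acsl5, an acyl-CoA synthetase, rose by 0.88 ± 0.25 (adjusted p = 0.0289) and Dgat1, which makes the last bond of triglyceride, by 0.49 ± 0.16 (adjusted p = 0.0417); Dgat1 overlapped between the groups and its change was 0.30 without 8% replicate 1 (adjusted p = 0.165). Acsl5 was not called without any 1 of the 8% arrays or without chow replicate 1, 3 or 4 (adjusted p up to 0.0853). Dgat1 was also not called without 8% replicate 2 or chow replicate 1, 3 or 4, nor when its probe sets were averaged (0.23, adjusted p = 0.153). With a smooth curve by level removed Acsl5 was 0.785 (adjusted p = 0.0549) and Dgat1 0.355 (0.147), neither called. The lower gene was Slc27a5, a bile acid-CoA ligase known from liver, at -0.38 ± 0.11 (adjusted p = 0.0321; up to 0.0949 without any 1 of the arrays other than chow replicate 2). Lpl, which frees fatty acids from blood lipoproteins, averaged 12.76 on 8% fat and 12.52 on chow (adjusted p = 0.124; 0.0274 without chow replicate 2). Cd36 and Fabp3, a fatty acid translocase and a binding protein, differed by 0.22 and 0.14 and were not called (adjusted p = 0.152 and 0.294).

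Few milk genes were called. Of 13 tested milk protein genes 1 was called higher and 1 lower, and the median change was -0.06. Csn2 differed by -0.05 ± 0.10 (adjusted p = 0.704), Wap by -0.02 ± 0.08 (0.874), alpha-casein (Csn1s1) by -0.11 ± 0.08 (0.317) and alpha-lactalbumin (Lalba), a subunit of lactose synthase, by -0.16 ± 0.12 (0.313). The signs of Csn2 and Wap turned with ribosomal medians set equal, and these genes lie at the top of the array's range. Glycam1, a mucin-like milk glycoprotein, had 15.42, 15.34 and 15.49 on 8% fat, against 15.70, 15.63, 15.69 and 15.56 on chow, a difference of -0.23 ± 0.08 at the edge of the threshold (adjusted p = 0.0473). It was not called without any 1 of the 8% arrays or without chow replicate 1, 3 or 4 (adjusted p 0.0686 to 0.166).

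Among proteins of the milk fat globule, Cidea, which helps lipid droplets grow and be secreted, had 13.92, 14.01 and 13.96 on 8% fat, against 13.64, 13.60, 13.57 and 13.39 on chow (0.42 ± 0.09, adjusted p = 0.00856). Cidea averaged 13.96 on 16% and 13.98 on 40% fat, and was called whichever of the 7 arrays was left out. With a smooth curve by level removed Cidea was 0.29 and not called (adjusted p = 0.0552). A limma fit of all mammary arrays did not call it either (adjusted p = 0.11). The list had 2 of 11 genes higher, the other being Muc1, an apical mucin, at 0.47 ± 0.15 (adjusted p = 0.0428; 0.0675 to 0.115 without any 1 of the arrays other than chow replicate 4). Of 11 genes of lactose synthesis and glucose uptake 3 were higher. The share of higher genes to set beside both lists was 12.2% of all genes. Of all probe sets, 162 of 702 were called higher at a level of 8 to 10 and 43 of 286 at 10 and over. Pgm1, phosphoglucomutase, rose by 0.68 ± 0.15 (adjusted p = 0.0113) and was called under each of the 7 omissions. B4galt1, the catalytic subunit of lactose synthase, rose by 0.58 ± 0.18 (adjusted p = 0.0398) and Slc2a1, the glucose transporter GLUT1, by 0.35 ± 0.11 (adjusted p = 0.0438). B4galt1 and Slc2a1 lost the call without any 1 of the arrays other than chow replicate 1 (adjusted p up to 0.118 and 0.151). With a smooth curve by level removed neither was called, at 0.42 (adjusted p = 0.162) and 0.22 (0.168). Muc1 was 0.33 with that curve removed and was not called (adjusted p = 0.167).

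Genes of pyruvate oxidation and the citric acid cycle had 6 of 22 higher and 1 lower, against 12.2% and 12.4% of all genes. Their median change was 0.17. Over all probe sets at a level of 8 to 10 the median was 0.176, with 162 of 702 called higher. At a level of 7 to 8 it was 0.162, with 183 of 857 called higher. Sdhd, a membrane subunit of succinate dehydrogenase, had 8.93, 9.02 and 8.66 on 8% fat, against 8.26, 8.22, 7.89 and 7.84 on chow, with no overlap and a change of 0.82 ± 0.16 (adjusted p = 0.0062). It kept its call under each of the 7 omissions. Sdhc, the other membrane subunit, rose by 0.67 ± 0.18 (adjusted p = 0.0261) and Pdha1, of pyruvate dehydrogenase, by 0.36 ± 0.09 (adjusted p = 0.0205). Neither was called without 8% replicate 1 or 2 (adjusted p up to 0.0949). With a smooth curve by level removed Sdhc was 0.535 (adjusted p = 0.0552) and Pdha1 0.21 (0.147), neither called.

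Citrate synthase (Cs) rose by 0.42 ± 0.12 (adjusted p = 0.0295). Without any 1 of the 8% arrays or chow replicate 1 it was not called (up to 0.108), at 0.33 to 0.47. With a smooth curve by level removed Cs was 0.27 and not called (adjusted p = 0.104). Sucla2, of succinyl-CoA ligase, rose by 0.80 ± 0.22 on its brightest probe set (adjusted p = 0.028), while a second probe set fell by 0.43 ± 0.14 (adjusted p = 0.0405), so that its direction is uncertain; the brightest was not called without 8% replicate 1 or 2 or chow replicate 1, 3 or 4 (up to 0.0904). Idh3a, of isocitrate dehydrogenase, fell by 0.46 ± 0.14 (adjusted p = 0.0356), at a dim 5.03 on 8% fat and 5.49 on chow, and lost the call without any 1 of the arrays other than chow replicate 2 (up to 0.104). Pgk1 alone of 12 glycolytic genes was called, at 0.63 ± 0.18 (adjusted p = 0.0279). Its adjusted p was 0.0655 to 0.0917 without 8% replicate 2, 8% replicate 3 or chow replicate 4. With a smooth curve by level removed Pgk1 was 0.47 and not called (adjusted p = 0.0767). Of 20 genes of fatty acid oxidation 3 were higher, near the 12.2% of all genes; the largest change was that of Acaa1a, the peroxisomal thiolase, at 0.83 ± 0.15 (adjusted p = 0.00405), and of 7 fasting-type targets of Ppara limma called 0, with or without a variance trend, with 2 at an unadjusted p under 0.05 and a median difference of -0.22.

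Immunoglobulin probe sets showed the largest rises. They were gathered by gene symbol after their values had been seen: 38 of 65 passed the filter, for 21 genes mainly of the kappa locus on chromosome 6 and the heavy chain locus on chromosome 12. Of the 38, 22 were called higher and 1 lower, against 11.7% and 14.1% of all probe sets. Of these 38 probe sets 28 carry a special suffix, mostly the one for probes shared within a family, so that many are not separate measurements. In 32 of the 38 the chow mean was above the filter line too, and 20 of those 32 were called higher. The median level of the 38 was 6.84, 7.72 and 6.33 on the arrays with 8% fat, against 5.21, 4.89, 5.60 and 5.14 on chow. It was 5.47, 5.96 and 5.33 on 16% fat and 5.93, 6.52 and 7.51 on 40% fat.

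Ighm, the heavy chain of IgM, had 11.26, 12.51 and 11.20 on 8% fat, against 10.10, 9.20, 10.37 and 9.92 on chow. All arrays on 8% fat were higher, replicate 2 most, with a change of 1.76 ± 0.48 (3.38-fold, adjusted p = 0.0261) that was not called without 8% replicate 2 (1.33, adjusted p = 0.1) or chow replicate 4 (0.0566). With its probe sets averaged Ighm was 0.40 and not called (adjusted p = 0.15). Jchain, which joins IgA and IgM chains into polymers and marks plasma cells, had 8.35, 9.82 and 8.40 on 8% fat, against 6.93, 6.67, 7.13 and 6.52 on chow (2.04 ± 0.46, adjusted p = 0.012; 0.0576 without 8% replicate 2). On chow at lactation day 2 Ighm averaged 7.33 and Jchain 5.05, against 9.90 and 6.82 on chow at lactation day 9; that difference by stage was not tested.

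Among variable segments, Igkv4-91 had 7.78, 9.05 and 8.62 on 8% fat, against 3.81, 5.15, 5.63 and 3.66 on chow, a rise of 3.92 ± 0.65 (15.1-fold, adjusted p = 0.00287). Igkv4-68 had 7.99, 9.23 and 8.20 on 8% fat, against 6.04, 6.64, 6.19 and 4.92 on chow (2.52 ± 0.45, adjusted p = 0.00453). Both were called under each of the 7 omissions. Ighv5-12 rose by 3.78 ± 0.78 (adjusted p = 0.00856), with 5.54 to 7.46 on 8% fat against 2.38 to 2.48 on chow, below the filter line, and Ighg3, of an IgG constant region, by 2.14 ± 0.50 (adjusted p = 0.0141; 0.0593 without 8% replicate 2). On 16% fat limma called 0 of the 38, with or without a variance trend, with 1 at an unadjusted p under 0.05 and a median difference from chow of 0.3. On 40% fat 16 were higher and 1 lower, with a median of 1.27.

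Pigr, the receptor that carries polymeric antibody across the epithelium into milk, had 12.67, 12.80 and 12.56 on 8% fat, against 12.37, 11.67, 11.55 and 11.51 on chow. The rise of 0.90 ± 0.18 (adjusted p = 0.00701) was 1.10 without chow replicate 1. The other tested lymphocyte markers were not called higher. The T cell genes Cd3d and Ccr7 fell by 0.46 ± 0.14 and 0.45 ± 0.14 (adjusted p = 0.033 and 0.0339), at levels near 4.58 and 4.14 on 8% fat and 5.04 and 4.59 on chow, where the median of all dim probe sets was also below 0; both lost the call without any 1 of the arrays other than chow replicate 2 (adjusted p up to 0.103). A second probe set of Cd3d went the other way by 0.16 (adjusted p = 0.239), and when its probe sets were averaged Cd3d was not called, so that its direction is uncertain. The B cell genes Cd79a and Ms4a1 were not called. The summed intensity of 13 lymphocyte markers with a probe set, Ighm and Jchain included, was 2877 to 6931 on 8% fat and 877.8 to 1701 on chow.

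Psmb8 and Psmb9, subunits of the immunoproteasome, were higher too. Psmb8 had 6.81, 6.71 and 6.73 on 8% fat, against 5.54, 6.14, 5.45 and 5.67 on chow (1.05 ± 0.19, adjusted p = 0.00405), and Psmb9 rose by 0.64 ± 0.11 (adjusted p = 0.00373). The interferon response list that holds them had 2 of 14 higher and 2 lower, near the 12.2% and 12.4% of all genes. The interferon-induced Ifi27l2a had 6.40, 5.30 and 4.96 on 8% fat, against 6.08, 7.47, 6.62 and 6.98 on chow, a fall of 1.24 ± 0.35 with overlap (adjusted p = 0.0296). That call was lost without 8% replicate 2 or 3 or chow replicate 4 (adjusted p up to 0.108). The fourth called gene of the list was Ifit2, at -0.35 (adjusted p = 0.0298; up to 0.0881 without any 1 of the arrays other than chow replicate 2), with a mean of 3.94 on 8% fat below the filter line.

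**Figure D3:**
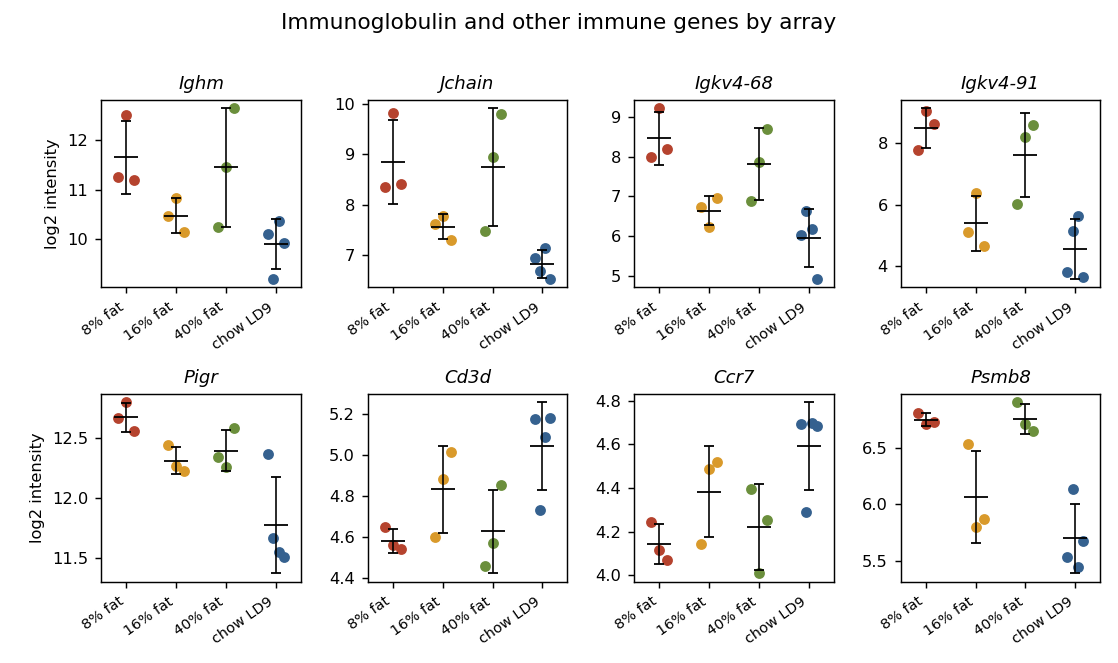
Log2 intensity (y axis) of 8 immune genes on each array, by diet; points are arrays and bars group mean ± SD (n = 3 per diet, 4 for chow). Ighm, Jchain, Igkv4-68 and Igkv4-91 on 8% fat lie above every chow array, with 16% fat nearer to chow, while Cd3d and Ccr7 stay between 4.07 and 5.18 on the 8% and chow arrays.

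Most acute phase genes were lower on 8% fat: 7 of 13 tested were called lower and 0 higher, against 12.4% and 12.2% of all genes. Their median change was -0.33. On 16% fat 2 of the 13 were lower (2.79% of all genes) and on 40% fat 6 (8.52%). Orm1, an alpha-1-acid glycoprotein, had 6.95, 6.81 and 6.48 on 8% fat, against 7.44, 9.92, 8.85 and 8.59 on chow. It fell by 1.95 ± 0.41 (adjusted p = 0.00936), and Lrg1, a leucine-rich glycoprotein of the acute phase, by 1.17 ± 0.25 (adjusted p = 0.00984). Both were called under each of the 7 omissions. Saa2, a serum amyloid A, had 5.45, 5.63 and 6.34 on 8% fat, against 5.98, 9.98, 7.48 and 7.75 on chow.

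Chow replicate 2 was far above the rest for Saa2, and the fall of 1.99 ± 0.65 (adjusted p = 0.0414) was -1.27 without it (adjusted p = 0.0311). It lost its call without any 1 of the 8% arrays or without chow replicate 3 or 4 (adjusted p up to 0.11). A second probe set of Saa2 gave -0.15 ± 0.30 (adjusted p = 0.726), and when its probe sets were averaged the change was -1.07 and not called (adjusted p = 0.106). Saa2 averaged 11.77 on chow at lactation day 2, above all diets and above lactation day 9 on chow. Saa3 fell by 1.09 ± 0.31 (adjusted p = 0.0281) and Orm2 by 1.08 ± 0.30 (adjusted p = 0.0262). The other 2, S100a9 and haptoglobin (Hp), fell by 0.33 and 0.32. Saa3 was not called without 8% replicate 2 or 3 or chow replicate 4, Orm2 not without 8% replicate 1 or 3 or chow replicate 3, and S100a9 and Hp not without any 1 of the 8% arrays, chow replicate 1 or chow replicate 4 (S100a9 also not without chow replicate 3), with adjusted p up to 0.133. With a smooth curve by level removed Saa2, Saa3 and Orm2 were not called but kept changes of -2.001, -0.99 and -0.87, while S100a9 and Hp, also not called, had -0.20 and -0.27. With ribosomal medians set equal S100a9 and Hp were not called either, at -0.24 and -0.22. The brightest gene of the list, Lcn2, an iron-siderophore binding protein, averaged 11.97 on 8% fat and 12.47 on chow and was not called (adjusted p = 0.0639).

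The collagen genes Col1a1, Col1a2 and Col3a1 were lower on 8% fat than on at least 3 of the 4 chow arrays. Of 18 fibroblast and matrix genes 5 were called lower and 0 higher, against 12.4% and 12.2% of all genes. Their median was -0.39, with 5 of the 18 above 0. The other collagen genes of the list were not called. The bright members decorin (Dcn) and Sparc differed by 0.22 and -0.56 and were not called (adjusted p = 0.411 and 0.295; Sparc -1.05 and 0.00488 without chow replicate 1). Col1a1, of type I collagen, had 8.09, 7.14 and 7.04 on 8% fat, against 7.53, 10.23, 9.73 and 10.03 on chow. Chow replicate 1 lay among the 8% arrays, and the other 3 chow arrays lay above all of them. The change was -1.96 ± 0.50 (adjusted p = 0.0212) with that array and -2.58 without it (adjusted p = 0.000107), and Col1a1 lost the call without 8% replicate 2 or 3 (adjusted p = 0.0749) or chow replicate 4 (0.0581). Col1a2 had 6.88, 6.07 and 6.26 on 8% fat, against 6.59, 8.99, 8.33 and 8.64 on chow, and Col3a1, of type III collagen, 8.33, 8.22 and 7.97 on 8% fat, against 8.36, 10.19, 9.62 and 9.71 on chow.

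Col1a2 fell by 1.74 ± 0.43 (adjusted p = 0.0187) and Col3a1 by 1.29 ± 0.31 (adjusted p = 0.0157), and without chow replicate 1 the changes were -2.25 and -1.67. Col1a2 was not called without 8% replicate 2 or 3 or chow replicate 4, and Col3a1 not without 8% replicate 3 (adjusted p up to 0.0717). A second probe set of Col1a2 gave -0.34 ± 0.13, not called (adjusted p = 0.0721), while the other tested probe sets of Col1a1 and Col3a1 were called lower. Fibronectin (Fn1) fell by 0.86 ± 0.27 (adjusted p = 0.0375; 0.138 without 8% replicate 2, and not called either without 8% replicate 1 or 3 or chow replicate 3 or 4). The fifth gene was Fbln1, fibulin 1, at -0.50 ± 0.13 with overlap (adjusted p = 0.0243; not called without 8% replicate 2 or 3 or chow replicate 3 or 4). With ribosomal medians set equal Fn1 was -0.77 (adjusted p = 0.0505) and Fbln1 -0.40 (0.184), neither called, and the 3 collagen genes were called. The summed intensity of the 19 matrix markers was 2423 to 2941 on 8% fat and 2168 to 6187 on chow. Over the same arrays the summed erythrocyte markers were 1124 to 2352 on 8% fat and 790 to 17010 on chow, again with chow replicate 1 low; Hba-a1 had 10.54, 9.54 and 9.53 on 8% fat and differed by -1.80 ± 0.69 (adjusted p = 0.0686; -2.65 and 0.00047 without chow replicate 1). The part of blood or of the share of stroma in these values was not tested.

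Other single genes fell without overlap. Sgip1, a membrane-trafficking adaptor, had 4.56, 5.28 and 4.49 on 8% fat, against 6.94, 7.09, 7.03 and 7.11 on chow, a fall of 2.27 ± 0.19 (4.81-fold, adjusted p = 8.33e-05). Col9a1, a chain of type IX collagen, had 5.75, 5.89 and 5.80 on 8% fat, against 6.93, 7.45, 7.39 and 7.81 on chow (-1.58 ± 0.17, adjusted p = 0.000185). Gpx3, the secreted glutathione peroxidase, fell by 1.36 ± 0.21 (adjusted p = 0.00215), Car4, a carbonic anhydrase on the cell surface, by 1.45 ± 0.29 (adjusted p = 0.0077), and Itga8, an integrin, by 1.26 ± 0.15 (adjusted p = 0.000425). None of these 5 lost its call under any of the 7 omissions. The mean of Itga8 on 8% fat, 4.08, was below the filter line, and a second probe set gave -0.40 ± 0.15, not called (adjusted p = 0.0568). On chow at lactation day 2 Car4 averaged 10.41 and Gpx3 10.25, against 7.80 and 9.17 on chow at lactation day 9. On 16% and 40% fat Itga8 averaged 4.12 and 4.09, Car4 6.78 and 6.62, Col9a1 6.09 and 6.70, and Gpx3 8.02 and 8.32. All of these lay below the chow means at lactation day 9.

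DNA replication and mitosis genes had 5 of 19 lower and 0 higher, against 12.4% and 12.2% of all genes, with a median of -0.28. Members of the list lay at different levels. The median over all probe sets was -0.227 under a level of 5, -0.067 from 5 to 6, 0.083 from 6 to 7 and 0.162 from 7 to 8. In 3 of the 5 the mean on 8% fat was below the filter line. Ccnb2, cyclin B2, had 3.42, 3.67 and 3.62 on 8% fat, against 4.04, 5.89, 5.77 and 4.48 on chow (-1.48 ± 0.38, adjusted p = 0.0209; 0.0569 to 0.0611 without any 1 of the 8% arrays). Birc5, survivin, fell by 0.37 ± 0.10, and the brightest, Mki67, the Ki-67 antigen, had 7.10, 7.10 and 7.22 on 8% fat, against 7.05, 8.42, 7.52 and 7.46 on chow, with overlap and no call (adjusted p = 0.159). With a smooth curve by level removed Ccnb2 was -1.25 (adjusted p = 0.0604) and Birc5 -0.19 (0.233), neither called. Birc5 was not called without any 1 of the 8% arrays or chow replicate 1 or 4 (adjusted p up to 0.0926).

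Some epithelial and myoepithelial markers were higher on 8% fat. Of 10 luminal markers 4 were called higher and 0 lower, and of 6 myoepithelial markers 3 were higher and 0 lower. Over all genes the shares were 12.2% higher and 12.4% lower. At a level of 8 to 10, 162 of 702 probe sets were called higher. Elf5, a bright luminal marker and a factor of alveolar cells, and the myosin Myh11 were not called (adjusted p = 0.436 and 0.199). Gata3, a transcription factor of luminal fate, had 8.69, 7.57 and 8.14 on 8% fat, against 6.47, 6.54, 6.32 and 6.37 on chow. All arrays on 8% fat lay above all chow arrays, with a change of 1.71 ± 0.21 (3.27-fold, adjusted p = 0.0006), and Gata3 averaged 7.83 on 16% and 8.04 on 40% fat. Epcam, an epithelial adhesion protein, rose by 0.96 ± 0.23 (adjusted p = 0.0157; 0.0643 without 8% replicate 3). Krt7, a luminal keratin, rose by 0.47 ± 0.15 at the dim levels of 4.71 on 8% fat and 4.23 on chow (adjusted p = 0.0371; not called without 8% replicate 2 or 3 or chow replicate 1, 2 or 4), and the keratins Krt8 and Krt18 were not called.

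Mylk, myosin light chain kinase of contractile cells, had 8.21, 8.07 and 8.02 on 8% fat, against 5.78, 7.25, 7.06 and 7.12 on chow. The groups did not overlap, and chow replicate 1 was the lowest. The change was 1.30 ± 0.28 (adjusted p = 0.0101) and 0.95 without chow replicate 1 (adjusted p = 0.00113). Smooth muscle actin (Acta2) rose by 0.83 ± 0.22 (adjusted p = 0.0248; not called without any 1 of the 8% arrays or chow replicate 1 or 4) and transgelin (Tagln) by 0.90 ± 0.22 (adjusted p = 0.0178; not called without 8% replicate 1 or 2). Calponin (Cnn1) differed by 0.61 ± 0.21 (adjusted p = 0.052). The difference of Cnn1 was 0.74 without chow replicate 3 (adjusted p = 0.0397) and 0.36 without chow replicate 1 (0.0649). The myoepithelial keratins Krt5 and Krt14 lay below the filter line. The summed intensity of the myoepithelial markers was 2398 to 2667 on 8% fat and 1082 to 1891 on chow, and that of the luminal markers 9356 to 9981 on 8% fat and 7325 to 8352 on chow. Whether these sums follow the share of cells was not tested.

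**Figure D4:**
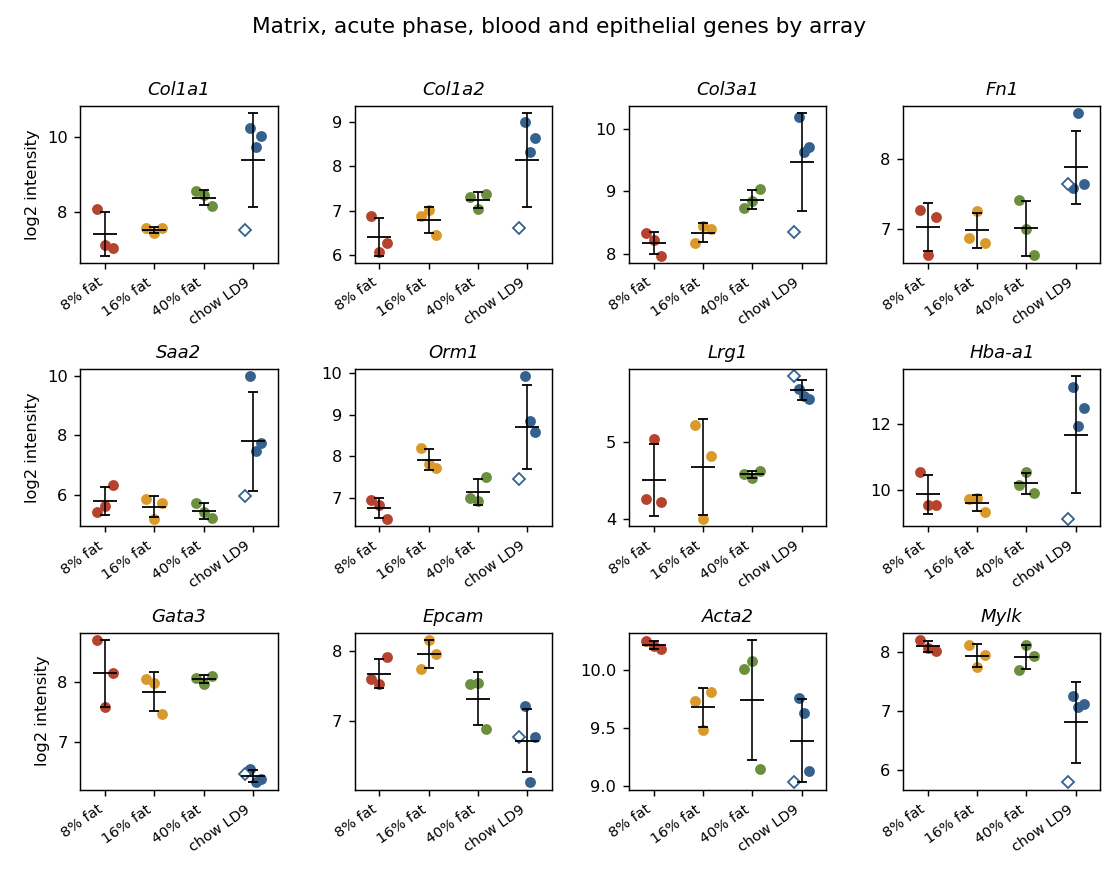
Log2 intensity (y axis) of 12 matrix, acute phase, blood and epithelial genes on each array, by diet; points are arrays, the open diamond is chow replicate 1, and bars are group mean ± SD (n = 3 per diet, 4 for chow). Chow replicate 1 is the lowest chow array for Col1a1, Col1a2, Col3a1, Saa2 and Hba-a1, while Gata3 and Mylk on 8% fat lie above every chow array.

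Igf1, insulin-like growth factor 1, had 9.80, 10.17 and 10.15 on 8% fat, against 9.19, 8.07, 8.68 and 8.49 on chow (1.43 ± 0.23, adjusted p = 0.00236), and a second probe set rose by 1.11 ± 0.23 (adjusted p = 0.00936). It averaged 6.62 on chow at lactation day 2, and 9.54 on 16% and 9.85 on 40% fat. Cebpd, a transcription factor that is induced at weaning, had 9.17, 8.54 and 10.13 on 8% fat, against 8.04, 7.86, 7.06 and 7.59 on chow. It rose by 1.64 ± 0.30 (adjusted p = 0.00528), while its average was 7.41 on 16% fat and 8.50 on 40% fat. The difference of Cebpd between 8% and 40% fat, 0.78, was not called (adjusted p = 0.674). Ccn2, a matricellular growth factor, had 6.72, 4.63 and 6.88 on 8% fat, against 4.59, 4.47, 4.33 and 5.44 on chow, so that only replicates 1 and 3 of 8% fat were above all chow arrays.

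The change of Ccn2 was 1.37 ± 0.44 (adjusted p = 0.0411); it was 2.10 without 8% replicate 2 and not called without 8% replicate 1 or 3 or chow replicate 1, 2 or 3 (adjusted p up to 0.156). Klf6, a transcription factor, rose by 0.69 ± 0.17 (adjusted p = 0.0197; not called without 8% replicate 1 or 3). The immediate-early list had 5 of 21 higher, against 12.2% of all genes, and 3 lower, near the 12.4% of all genes. The lower ones were Jun at -0.44, Myc at -0.61 and Gadd45a at -0.51. Jun and Gadd45a were not called without 8% replicate 2, and Myc not without 8% replicate 1 or 3 or chow replicate 2, 3 or 4. The mean of Gadd45a on 8% fat, 4.15, was below the filter line. With ribosomal medians set equal Jun (-0.34), Myc (-0.51) and Gadd45a (-0.41) were not called (adjusted p = 0.194, 0.0872 and 0.15). With a smooth curve by level removed Jun was called (-0.32), while Myc (-0.40) and Gadd45a (-0.28) were not (adjusted p = 0.216 and 0.0791). Of 12 genes tied to involution 3 were higher, again against 12.2%. They were Cebpd, clusterin (Clu) at 0.71 ± 0.09 (adjusted p = 0.000932) and the protease inhibitor Timp1 at 0.96 ± 0.20 (adjusted p = 0.00998). Clu averaged 11.58, 11.57 and 11.94 on 8%, 16% and 40% fat, against 10.87 on chow.

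The largest rises outside immunoglobulins, ranked after values were seen, were led by Cd59a, an inhibitor of complement, at 6.48, 6.69 and 6.71 on 8% fat, against 4.001, 4.99, 4.85 and 3.61 on chow (2.26 ± 0.29, 4.80-fold, adjusted p = 0.000737). Adck1, a kinase-like gene by its name in the annotation, rose by 1.93 ± 0.54 (adjusted p = 0.028), and by 1.86 and 1.24 on its other probe sets. It was left out of this ranking by hand after its values were seen, its probe sets carrying the suffix for probes shared with other transcripts, and was not called without 8% replicate 2 or 3 or chow replicate 3 (adjusted p up to 0.0926). Cxxc1, a CpG-binding protein whose probe set carries the same suffix, rose by 1.65 ± 0.44 and Bnip3, a mitochondrial protein induced by low oxygen, by 1.48 ± 0.41 (adjusted p = 0.0236 and 0.028). Their chow means of 3.51 and 3.42 were below the filter line, and the call was lost without 8% replicate 1 or 3 or chow replicate 1 or 3 for Cxxc1 and without 8% replicate 2 or 3 or chow replicate 3 or 4 for Bnip3. Slc31a1, the copper importer CTR1, had 10.14, 10.38 and 10.29 on 8% fat, against 8.93, 8.90, 8.51 and 8.60 on chow. Its rise of 1.53 ± 0.17 (adjusted p = 0.000227) was 1.69 ± 0.15 on a second probe set (adjusted p = 8.37e-05). Ndrg1, a gene known to respond to stress and low oxygen, rose by 1.47 ± 0.32 (adjusted p = 0.0102) and by 1.70 ± 0.31 on a second probe set (adjusted p = 0.00439).

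Spop, a substrate adaptor of a ubiquitin ligase, rose by 1.60 ± 0.21 (adjusted p = 0.000932) and Dnajc8, a splicing-associated cochaperone, by 1.66 ± 0.21 (adjusted p = 0.000691). The probe set of Dnajc8 also carries the suffix for shared probes, but Dnajc8 was kept in the ranking. A second probe set of Dnajc8 differed by 0.12 and was not called. Psen2, presenilin 2, rose by 1.40 ± 0.19 (adjusted p = 0.00111), with 4.34 to 4.87 on 8% fat against 2.94 to 3.42 on chow, below the filter line. These 6 genes were called under each of the 7 omissions. On 40% fat Cd59a, Slc31a1, Ndrg1 and Spop averaged 6.33, 9.88, 11.07 and 7.63, close to 6.63, 10.27, 11.11 and 7.69 on 8% fat.

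**Figure D5:**
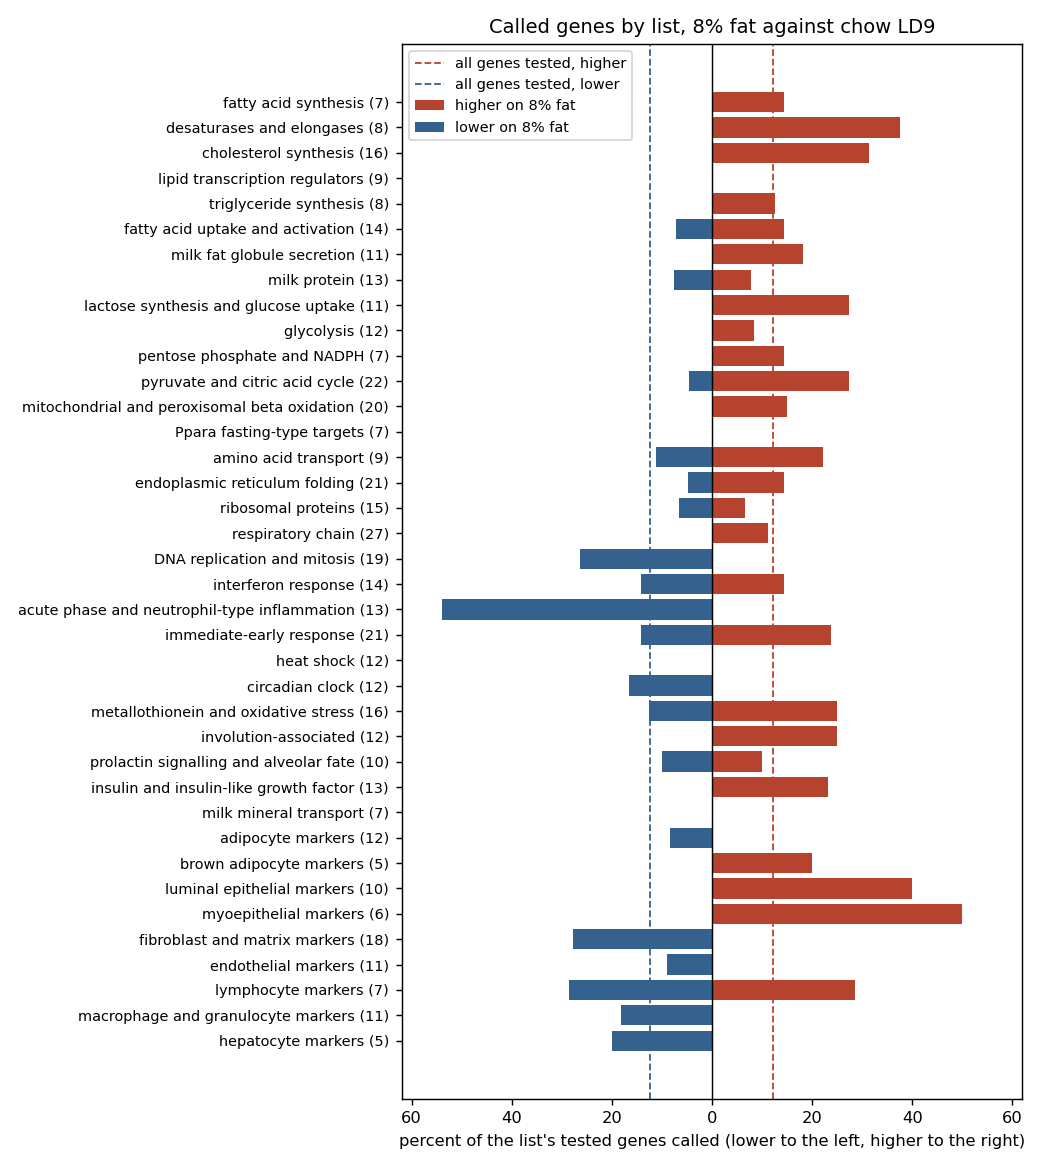
Percent of each list's tested genes (number in brackets, lists with at least 5) that were called higher (bars to the right) or lower (bars to the left) on 8% fat than on chow; dashed lines give the shares over all tested genes, 12.2% higher and 12.4% lower. Acute phase genes reach furthest to the left and myoepithelial and luminal markers furthest to the right. The dashed lines are not matched for the level of a list's genes.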

How the data were processed

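The table held deposited intensities on a linear scale for 12488 probe sets in 32 arrays, 1 per sample. Per the submitters' processing notes the authors used GCRMA, which corrects background from probe sequence and normalizes between arrays; its version, its settings and the set of arrays normalized at once are unstated in the sources used here. The dams of the diet groups were triplicate per the labels; where nothing else is said of replicates, p-values measure only the spread between these arrays, and their number limits the precision.

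Here values below 1 were set to 1 and taken to log2. The 66 control probe sets were left out, and 6787 of 12422 probe sets were tested, those whose highest group mean reached the median of all values (18.6, or 4.22 in log2). One fit with limma 3.58.1 in R 4.3.3 covered the 13 arrays on 8%, 16% and 40% fat and chow at lactation day 9, with moderated variances and Benjamini-Hochberg adjustment over all tested probe sets. An exact permutation test of 3 against 4 arrays cannot go below 0.0571. The fit was tested on simulated data with independent noise between arrays. These held no shift by level and no array that stood apart, so that the test cannot speak to those features.

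Gene names came from the platform's annotation, with 10833 probe sets naming 1 gene, 396 several and 1193 none; no symbol came from a probe set with several. A gene's brightest probe set over all arrays stood for it. The 40 gene lists, the comparisons and the members were chosen with earlier results of these data known. Genes named were the 12 largest called rises and the 12 largest called falls whose arrays did not overlap, up to 4 called and 2 bright uncalled members of a pathway list, 2 called and 2 bright members of a marker list, and a fixed set of lipid and milk genes, of which the text leaves out some. Named outside that rule after values were seen were Fdft1, Cs, Pdha1, Idh3a, Fn1, Fbln1, Orm2, Hp, Krt7, Cnn1, Cd3d, Ccr7, Cd79a, Ms4a1, Krt8, Krt18, Jun, Myc, Gadd45a and the rises outside immunoglobulins. Replicate numbers did not pair the samples.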

Additional observations from a re-analysis of the deposited data

Results flagged for a closer look

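In 8 of 102 genes named in the report 1 of the 4 chow arrays lay far from the other 3 by Dixon's test. Chance alone marks about 1 in 20 such groups. Chow replicate 1 was low for Slc25a1 (11.08), Sdhc (6.90) and Mylk (5.78) and high for Cd36 (7.10). Chow replicate 2 was high for Saa3 (6.49) and low for Ccr7 (4.29), and chow replicate 3 was high for Fn1 (8.67) and low for Birc5 (4.90). The groups of 3 arrays were not screened.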

How the results depend on the processing

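Of 83 called genes named in the report 31 stayed called under every alternative that tested them, and 0 changed sign. The 796 higher probe sets became 497 with quantile normalization and 444 with the replicate number as a replicate block, and 333 to 968 with single arrays left out. The 959 lower ones became 439 in a fit of the compared groups only, 4591 with no filter, 183 with a filter at the 75th percentile, 528 with quantile normalization, 89 with ribosomal medians set equal, 229 with the replicate block, 338 with a smooth curve by level removed (added after seeing the data), and 161 to 1431 with single arrays left out. With that curve 63.7% of calls were higher, and with ribosomal medians 90.2%, against 45.4%. For 16% fat against chow the 764 calls became 448 in the compared groups only, 479 with the replicate block and 328 to 1182 with single arrays left out. For 40% fat the 1326 became 434 in the compared groups only, 664 with the stricter filter, 574 with the block, 860 with the curve and 323 to 2101. For 8% against 40% fat the 0 calls became 1 in the compared groups only, 18 with all mammary arrays, 6 with ribosomal medians, 1 with log2(value + 16), and 0 to 4. The cause of these shifts was not tested.

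The replicate numbers did not pair the samples: deviations of same-numbered arrays correlated at -0.0834, -0.00292 and -0.087. The block kept 49 of the 83 called genes, and the other alternatives that kept all arrays kept 55 to 83. The uncalled Srebf1, Csn2 and Wap changed sign. Srebf1 was -0.076 with quantile normalization, -0.137 with the curve, and -0.098 to 0.14 with single arrays left out. Csn2 was 0.04 and Wap 0.077 with ribosomal medians, and Csn2 was -0.086 to 0.004 with single arrays left out.

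Diet, day and sub-experiment cannot be told apart here, and 3 or 4 arrays a group limit precision. Probe sets near the filter line carry little signal over background.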
